A study of Mus musculus with 18 samples.

Results

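The genes described here are the 36 enzymes of nucleotide, serine and one-carbon synthesis named in a list of gene symbols, out of 45706 genes counted in each kidney. The list was applied by matching the Ensembl identifiers of the count tables to mouse symbols, and 36 of 36 were found. All 36 passed the filter on low counts in both cohorts, with between 37 and 8995 reads per gene and kidney. By role they comprise 5 enzymes of pyrimidine synthesis, 11 of purine synthesis, 2 that make the shared sugar donor phosphoribosyl pyrophosphate (PRPP), 6 of folate one-carbon metabolism, 9 that make or phosphorylate deoxynucleotides and nucleosides, and 3 of serine synthesis.

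RNA sequencing was performed on 18 whole kidneys from C57BL/6 mice after bilateral ischemia of 22.5 min and 12 h of reperfusion. The Myc cohort held 5 Myc KO kidneys (Cmyc F/F Pax8rtTA TetOcre) and 5 Myc control kidneys (Cmyc F/F Pax8rtTA), and the Cxcl12 cohort held 5 Cxcl12 KO kidneys (CXCL12 F/F Pax8rtTA TetOcre) and 3 Cxcl12 control kidneys (CXCL12 F/F Pax8rtTA). Mice were male littermates of 10 to 12 weeks that had received doxycycline for 14 days followed by 1 week without it, controls included. Every group was injured, so none of the values describes an uninjured kidney. Pax8rtTA with TetOcre directs the deletion to tubular epithelium, whereas the RNA came from all cells of the organ. A lower value in such tissue cannot separate fewer cells of a type from less RNA per cell.

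Proliferating and repairing cells build nucleotides from small precursors. Purine rings are assembled on PRPP from glutamine, aspartate, glycine and formyl groups, and pyrimidine rings are joined to it once made. The formyl groups are carried by folate that is charged with the carbon released when serine is split into glycine. Serine itself is made from a glycolytic intermediate by the enzymes PHGDH, PSAT1 and PSPH. MYC is a transcription factor that, paired with MAX, binds the E-box CACGTG, and genes of these pathways are among its known targets. ATF4, the factor of the amino acid response, drives several of the same serine and folate genes. Cxcl12 encodes a chemokine.

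The 6 genes that passed the statistical threshold in the Myc cohort were *Cad*, *Gart*, *Adsl*, *Atic*, *Mthfd2* and *Phgdh*. The 100 bases before their RefSeq transcription starts are shown because these are the sequences in which a binding motif of MYC could be looked for. They lie, in GRCm38.p6, at chr5:31054680-31054779 (*Cad*, plus strand), chr16:91646973-91647072 (*Gart*, minus), chr15:80948390-80948489 (*Adsl*, plus), chr1:71557056-71557155 (*Atic*, plus), chr6:83317605-83317704 (*Mthfd2*, minus) and chr3:98339970-98340069 (*Phgdh*, minus). Each is written 5′ to 3′ on the strand of its gene, and capitals mark the E-box CACGTG, the GC box GGGCGG and the CCAAT box on either strand, so that CCGCCC and ATTGG are reverse matches.
Cad: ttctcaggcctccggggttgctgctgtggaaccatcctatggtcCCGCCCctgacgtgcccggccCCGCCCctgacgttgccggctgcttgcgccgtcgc
Gart: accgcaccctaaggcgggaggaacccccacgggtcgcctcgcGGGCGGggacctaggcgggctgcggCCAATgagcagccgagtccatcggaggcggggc
Adsl: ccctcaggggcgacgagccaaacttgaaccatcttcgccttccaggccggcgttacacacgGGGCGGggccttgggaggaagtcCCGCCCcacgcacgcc
Atic: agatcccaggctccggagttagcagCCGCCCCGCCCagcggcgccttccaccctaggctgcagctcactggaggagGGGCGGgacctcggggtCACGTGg
Mthfd2: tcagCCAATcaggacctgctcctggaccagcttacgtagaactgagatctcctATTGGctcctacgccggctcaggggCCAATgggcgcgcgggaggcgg
Phgdh: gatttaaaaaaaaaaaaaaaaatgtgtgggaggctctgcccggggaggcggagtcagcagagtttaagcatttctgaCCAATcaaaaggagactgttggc
GGGCGG matched 2 times in the *Cad* stretch, 1 time in *Gart*, 2 times in *Adsl* and 3 times in *Atic*, where neighbouring reverse matches share 1 base. CCAAT matched 1 time in *Gart*, 3 times in *Mthfd2* and 1 time in *Phgdh*. The last 21 bases of the *Phgdh* stretch, 6 of *Atic* and 2 of *Mthfd2* are exonic in the gene annotation, and the *Cad*, *Gart* and *Adsl* stretches touch no exon.

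Of these 6 stretches, that of *Atic* alone held an E-box. Windows of 300 bases, from 250 before to 50 after each start, were available for 33 of the 36 genes (*Dhodh*, *Rrm2b* and *Pfas* had none). CACGTG was found in 5 of these 33 genes, and in 7.15% of the 32851 windows of all genes. The 33 genes have 40 windows, and all windows belong to 27025 genes. A gene counts when any of its windows matches, so shares of genes and of windows are not like for like, here and for the motifs below. For each of those 5 genes 1 match is shown with 12 bases on either side, at chr1:71557137-71557166 (*Atic*, plus strand), chr9:108560314-108560343 (*Impdh2*, plus), chr11:93968273-93968302 (*Nme1*, minus), chr5:76951087-76951116 (*Paics*, plus) and chr5:30073669-30073698 (*Tyms*, minus).
Atic: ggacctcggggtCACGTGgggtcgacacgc
Impdh2: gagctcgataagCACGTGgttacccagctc
Nme1: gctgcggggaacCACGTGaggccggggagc
Paics: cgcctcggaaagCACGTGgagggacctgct
Tyms: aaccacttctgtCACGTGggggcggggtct
*Nme1* has 2 windows, and the other holds a further match that is not shown. The *Impdh2* and *Nme1* matches shown lie in exons of those genes and the *Atic* match at the edge of its first. The *Paics* match lies in an exon of *Ppat*, its neighbour on the opposite strand, and the *Tyms* match lies outside exons. GGGCGG was present in 26 of the 33 genes and in 35.7% of all windows, and CCAAT in 16 of the 33 and in 37.4% of all windows. These are letter matches within the windows. Neither occupancy by MYC nor any site outside the windows was measured.

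Between 12918220 and 29749500 reads were assigned to genes per kidney. In 6 kidneys (2 Cxcl12 KO, 2 Myc KO and 2 Myc control) under 5% of reads were unmapped, and in the other 12 kidneys 5% or more, a technical split that the labels do not name and that holds no Cxcl12 control. *Myc* measured 117, 92.7, 85.9, 98.8 and 79.7 normalised CPM, a gene's reads scaled to a common library depth, in the 5 Myc controls and 37.0, 29.2, 29.7, 26.6 and 32.4 in the 5 Myc KO kidneys. Each KO kidney was below each control, and *Myc* fell by 67.3% (log2 fold change -1.61, SE 0.12, adjusted p = 8.82e-05, edgeR's quasi-likelihood test with Benjamini-Hochberg adjustment over all genes). *Cxcl12* measured 55.1, 60.5 and 44.9 CPM in the 3 Cxcl12 controls and 28.7, 36.3, 29.2, 26.3 and 40.9 in the 5 Cxcl12 KO kidneys. These groups did not overlap either (log2 fold change -0.73, SE 0.15, adjusted p = 0.0942 by edgeR, adjusted p = 0.00178 by DESeq2). In the opposite cohorts *Myc* measured 75.4, 109 and 86.3 CPM in Cxcl12 controls and 105, 123, 102, 91.5 and 100.4 in Cxcl12 KO kidneys, and *Cxcl12* measured 48.6, 47.1, 44.4, 29.8 and 43.0 in Myc controls and 38.7, 43.8, 36.03, 61.3 and 54.3 in Myc KO kidneys. Those groups overlapped.

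The first question was how the synthesis genes differed between Myc KO and Myc control kidneys 12 h after injury. *Cad*, *Gart*, *Adsl*, *Atic*, *Mthfd2* and *Phgdh* fell, by 23.1% to 38.6%, and no gene of the 36 rose past the threshold (0.355% of all genes did). The 6 lower genes are 16.7% of the 36, whereas 246 of 14936 genes tested (1.65%) passed the threshold in either direction and 1.29% were lower. Estimates were below 0 for 30 of the 36 genes and for 50.1% of all genes, and the median log2 fold change was -0.23 for the 36 and -0.00083 for all genes. An unadjusted p under 0.05 was found for 23 of the 36 and for 21.9% of all genes. In 10 genes every Myc KO kidney was below every control (*Adsl*, *Atic*, *Cad*, *Ctps*, *Gart*, *Mthfd2*, *Paics*, *Phgdh*, *Ppat* and *Umps*), a pattern seen in 3.92% of all genes, and in *Mtr* alone every KO kidney was above, seen in 2.05%. DESeq2 placed 12 of the 36 past the threshold, all lower, beside 7.57% of all genes in either direction and 4.33% lower: the same 6 with *Umps*, *Ctps*, *Adss*, *Nme2*, *Uck2* and *Psat1*. In the 3 Myc KO and 3 Myc control kidneys with 5% or more unmapped reads, edgeR placed none of the 36 past the threshold (8 of all genes), although the estimates for the 6 genes stayed between -0.34 and -0.83.

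**Figure D1:**
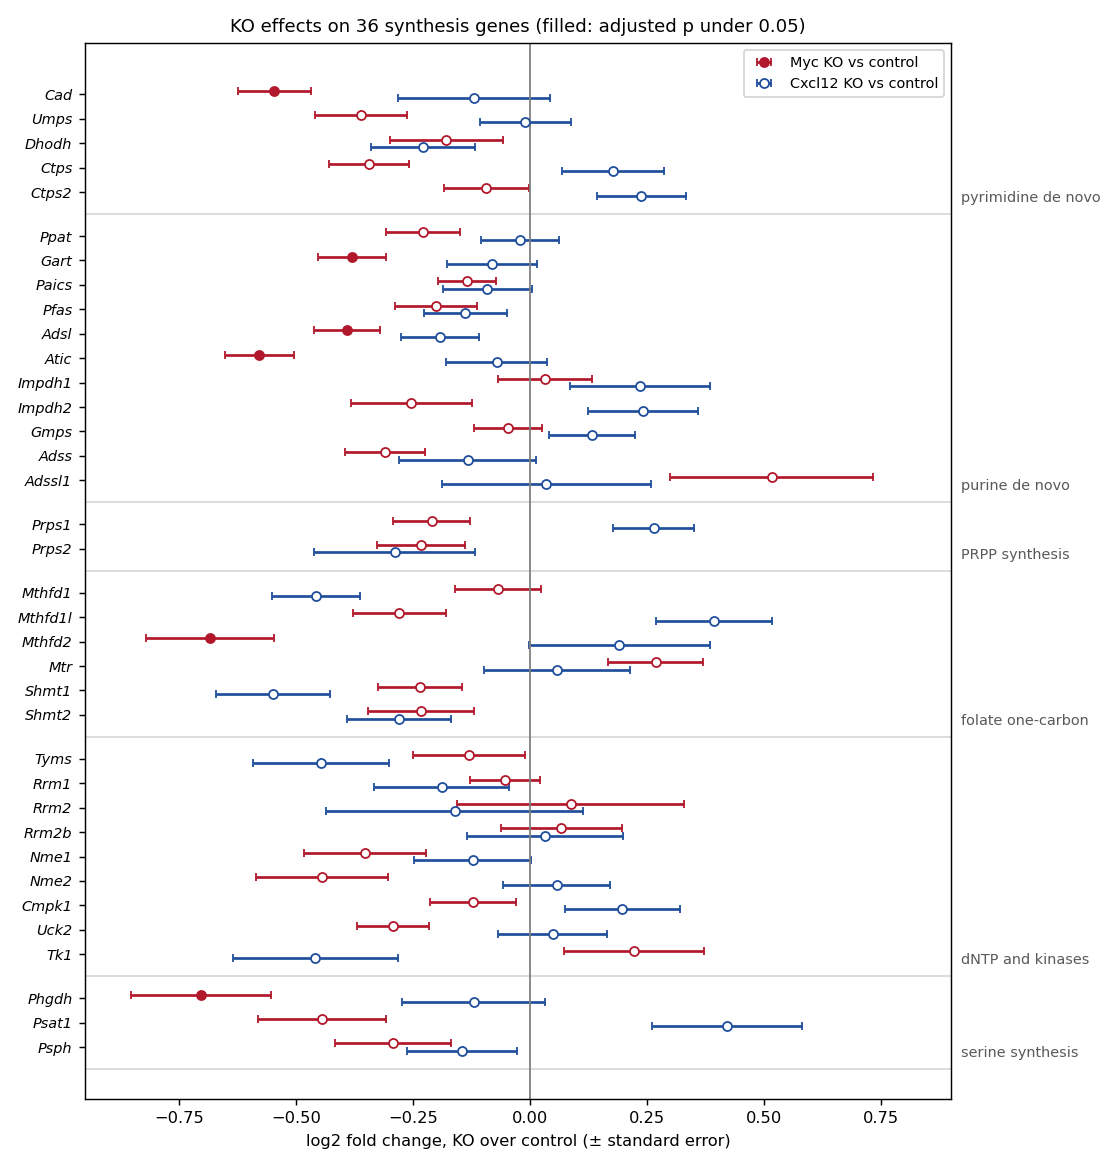
Log2 fold change of KO over control (horizontal axis) with its standard error for each of the 36 genes (rows, by role), in the Myc cohort (red) and the Cxcl12 cohort (blue). Filled points have an edgeR adjusted p under 0.05, which held for 6 genes in the Myc cohort, all left of 0, and for none in the Cxcl12 cohort.

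**Figure D2:**
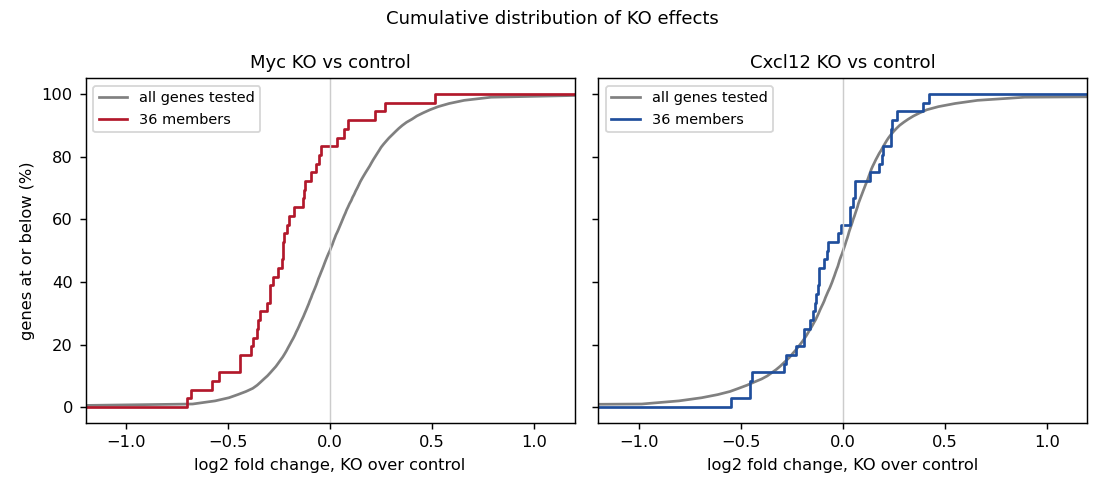
Cumulative share of genes (vertical axis, percent) at or below each log2 fold change (horizontal axis) for all genes tested (grey) and the 36 synthesis genes (coloured). In the Myc cohort the coloured line lies left of the grey one with a median of -0.23, and in the Cxcl12 cohort its median is -0.076.

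Of the 5 pyrimidine genes, all 5 had estimates below 0 in the Myc cohort and 1 passed the threshold. *Cad* encodes the large protein that carries out the first 3 steps of the pathway, from glutamine to dihydroorotate. It measured 49.5, 42.6, 41.4, 44.8 and 43.2 CPM in Myc controls and 30.9, 26.7, 32.8, 31.4 and 29.9 in Myc KO kidneys. The highest KO kidney was well under the lowest control, and *Cad* fell by 31.5% (log2 fold change -0.55, SE 0.077, adjusted p = 0.0105). The log2 ratio of group means was -0.54 in kidneys with under 5% unmapped reads and -0.56 in the others. *Umps*, which forms UMP in the final steps, averaged 38.5 ± 1.30 CPM in controls and 29.99 ± 4.66 in KO kidneys, and *Dhodh*, the mitochondrial step between them, averaged 10.7 ± 1.16 and 9.37 ± 1.28. *Umps* did not overlap between groups but missed the threshold (log2 fold change -0.36, SE 0.098, adjusted p = 0.0835), and *Dhodh* overlapped (log2 fold change -0.18, SE 0.12, adjusted p = 0.402).

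CTP synthase, which turns UTP into CTP, is encoded by *Ctps* and *Ctps2*. *Ctps* measured 139, 151, 125, 140.2 and 117 CPM in Myc controls and 112, 107, 98.99, 97.1 and 113 in Myc KO kidneys. *Ctps2* measured 48.1, 41.8, 43.1, 52.7 and 37.7 CPM in controls and 41.2, 42.4, 46.0, 40.3 and 39.3 in KO kidneys. All KO kidneys were below all controls for *Ctps* without an adjusted p under 0.05 (log2 fold change -0.34, SE 0.085, adjusted p = 0.0633), whereas the *Ctps2* groups overlapped (log2 fold change -0.093, SE 0.091, adjusted p = 0.575). Ratios between paralogs were taken on CPM per kilobase of exon, so they differ from ratios of the CPM printed here. On that scale the log2 ratio of *Ctps* to *Ctps2* averaged 2.10 ± 0.16 in controls and 1.85 ± 0.16 in KO kidneys. These groups overlapped.

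Of the 11 purine genes, 9 had estimates below 0 and 3 passed the threshold (27.3%), all lower. *Gart* encodes the trifunctional enzyme of early and middle steps of the pathway. It measured 51.1, 56.1, 52.9, 57.3 and 52.3 CPM in Myc controls and 41.1, 42.5, 39.2, 46.4 and 38.1 in Myc KO kidneys. The groups were separate and *Gart* fell by 23.1% (log2 fold change -0.38, SE 0.072, adjusted p = 0.0264), with log2 ratios of -0.43 and -0.35 in kidneys with under 5% and with 5% or more unmapped reads. An antisense transcript, Gm15964, shares 19.7% of the exon bases of *Gart*. Counting ignored strand and ambiguous reads were left out, so reads from bases shared with such a partner may be missing from a gene's count. That transcript carried 302 reads over all 18 kidneys.

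*Adsl*, adenylosuccinate lyase, acts both in the ring assembly and in the branch to AMP. It measured 52.6, 58.7, 51.5, 56.8 and 56.0 CPM in Myc controls and 45.5, 42.0, 39.7, 44.2 and 38.7 in Myc KO kidneys. No KO kidney reached the lowest control, and *Adsl* fell by 23.7% (log2 fold change -0.39, SE 0.071, adjusted p = 0.0251; -0.41 and -0.38 within the split by unmapped reads). *Atic* adds the last folate-borne formyl group and closes the ring to IMP. It measured 65.5, 60.8, 55.3, 63.7 and 59.0 CPM in controls and 42.2, 36.6, 42.1, 43.8 and 39.0 in KO kidneys. Again the groups were separate, *Atic* fell by 33.01% (log2 fold change -0.58, SE 0.074, adjusted p = 0.00728), and its ratio was -0.58 in either set of kidneys. *Cad* and *Atic* kept an adjusted p under 0.05 in each of the 10 fits that left out 1 kidney, *Gart* and *Mthfd2* in 4 of them, *Adsl* in 3 and *Phgdh* in 2.

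**Figure D3:**
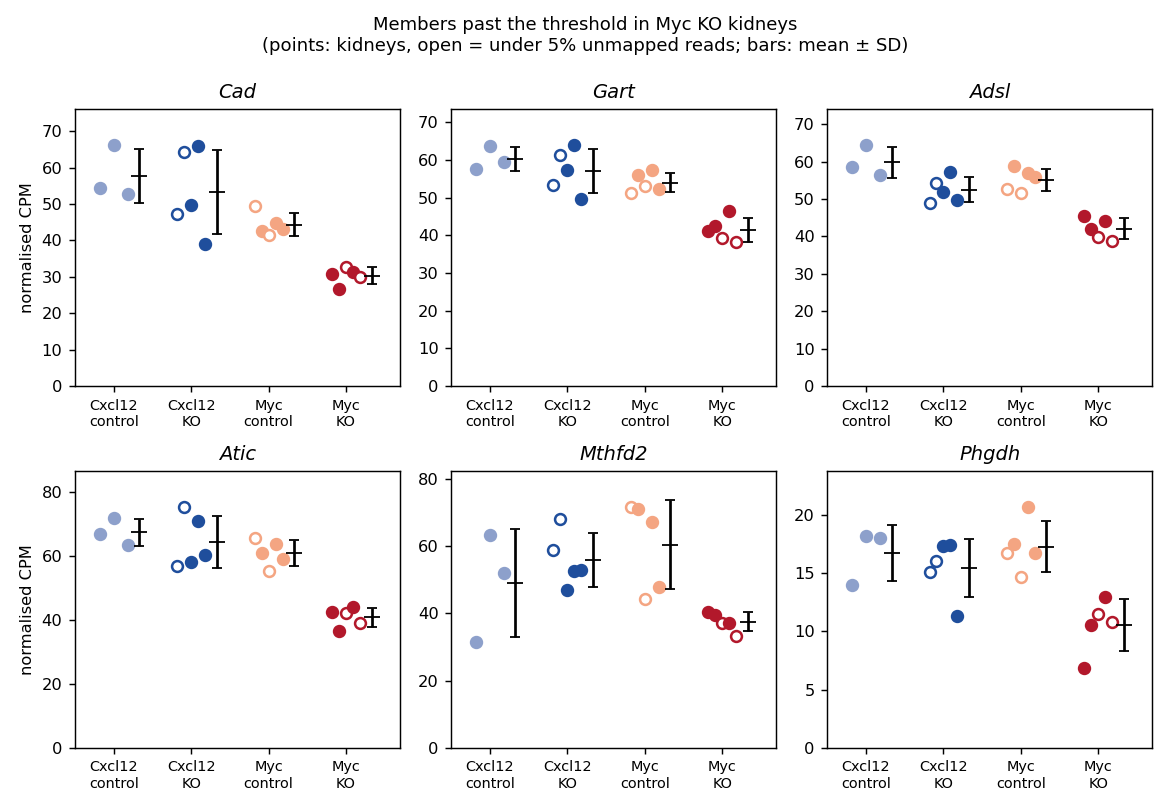
Normalised CPM (vertical axis) of the 6 genes past the threshold in the Myc cohort, in each kidney of the 4 groups, with mean ± SD beside the points and open points for kidneys with under 5% unmapped reads. In each panel the 5 Myc KO kidneys lie under the 5 Myc controls, while the Cxcl12 KO and control kidneys overlap.

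The other steps of ring assembly had smaller estimates. *Ppat*, which commits PRPP to purines, averaged 42.2 ± 3.65 CPM in Myc controls and 35.9 ± 2.51 in Myc KO kidneys (log2 fold change -0.23, SE 0.080, adjusted p = 0.136), and *Paics*, its divergently transcribed neighbour on chromosome 5, averaged 171 ± 5.22 and 155 ± 4.76 (log2 fold change -0.13, SE 0.062, adjusted p = 0.226). Both had separate groups and missed the threshold, and they share 272 exon bases on opposite strands. *Pfas*, which adds the amidine nitrogen, averaged 31.6 ± 3.43 and 27.5 ± 1.62 CPM with overlapping groups (log2 fold change -0.20, SE 0.087, adjusted p = 0.208).

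From IMP, *Impdh1* and *Impdh2* lead to GMP. *Impdh1* measured 20.3, 20.1, 24.2, 24.1 and 20.4 CPM in Myc controls and 21.4, 20.1, 21.4, 27.2 and 21.5 in Myc KO kidneys. *Impdh2*, the form usually linked to proliferation, measured 10.02, 13.8, 15.03, 10.1 and 12.9 CPM in controls and 11.2, 9.69, 9.56, 10.9 and 10.6 in KO kidneys. Both overlapped (log2 fold change 0.032, SE 0.10, adjusted p = 0.878 and log2 fold change -0.25, SE 0.13, adjusted p = 0.271, respectively), as did *Gmps*, which completes GMP and averaged 73.2 ± 6.37 and 70.8 ± 2.96 CPM (log2 fold change -0.046, SE 0.072, adjusted p = 0.742).

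Towards AMP, *Adss* encodes the common adenylosuccinate synthetase and *Adssl1* the muscle-type form. *Adss* measured 283, 279, 265, 259 and 217 CPM in Myc controls and 204, 207, 223, 193 and 222 in Myc KO kidneys. *Adssl1* measured 1.85, 2.95, 4.26, 2.77 and 4.39 CPM in controls and 5.38, 4.73, 4.16, 4.47 and 4.51 in KO kidneys. *Adss* lay lower in KO kidneys apart from 1 low control (log2 fold change -0.31, SE 0.086, adjusted p = 0.0882), and *Adssl1* had the highest positive estimate of the 36 (log2 fold change 0.52, SE 0.22, adjusted p = 0.197) from no more than 126 reads in any kidney. Their log2 ratio per kilobase of exon averaged 5.27 ± 0.63 in controls and 4.38 ± 0.19 in KO kidneys, with overlap.

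PRPP is made by *Prps1* and *Prps2*. *Prps1* measured 60.2, 51.6, 55.9, 57.9 and 44.5 CPM in Myc controls and 46.3, 46.8, 48.0, 44.6 and 47.6 in Myc KO kidneys. *Prps2* measured 37.7, 37.2, 38.1, 41.7 and 40.6 CPM in controls and 26.7, 31.4, 37.4, 33.5 and 36.6 in KO kidneys. All KO kidneys were under the control mean for both genes, but the groups overlapped (log2 fold change -0.21, SE 0.082, adjusted p = 0.173 and log2 fold change -0.23, SE 0.093, adjusted p = 0.179).

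Of the 6 folate genes, 5 had estimates below 0 and 1 passed the threshold (16.7%). *Mthfd2*, the mitochondrial dehydrogenase and cyclohydrolase of one-carbon metabolism, measured 71.7, 71.1, 44.2, 67.1 and 47.9 CPM in Myc controls and 40.3, 39.6, 37.2, 37.3 and 33.4 in Myc KO kidneys. The controls spread widely, from 44.2 to 71.7, and the KO kidneys sat closely together below them. *Mthfd2* fell by 37.8% (log2 fold change -0.68, SE 0.14, adjusted p = 0.0314), with log2 ratios of -0.72 and -0.67 within the split by unmapped reads.

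*Mthfd1* encodes the trifunctional cytosolic enzyme and *Mthfd1l* the mitochondrial enzyme that releases formate. *Mthfd1* measured 109, 93.8, 100.7, 106 and 109.7 CPM in Myc controls and 105, 99.5, 98.7, 113 and 78.5 in Myc KO kidneys. *Mthfd1l* measured 26.4, 26.1, 25.4, 26.2 and 21.0 CPM in controls and 24.8, 19.995, 20.7, 17.9 and 19.8 in KO kidneys. Both overlapped, with log2 fold change -0.068, SE 0.092, adjusted p = 0.698 and log2 fold change -0.28, SE 0.10, adjusted p = 0.144.

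The serine hydroxymethyltransferases split serine in the cytosol (*Shmt1*) and in mitochondria (*Shmt2*). *Shmt1* measured 31.8, 28.1, 27.0, 29.5 and 32.8 CPM in Myc controls and 25.4, 24.0, 23.3, 29.99 and 24.1 in Myc KO kidneys. *Shmt2* measured 133, 138, 113, 146 and 122 CPM in controls and 128, 127, 106, 109.8 and 84.0 in KO kidneys. These groups overlapped too, with nearly equal estimates (log2 fold change -0.23, SE 0.090, adjusted p = 0.165 and log2 fold change -0.23, SE 0.11, adjusted p = 0.251). *Mtr*, methionine synthase, averaged 19.9 ± 2.76 CPM in controls and 24.0 ± 1.44 in KO kidneys, where every KO kidney was above every control but the threshold was not met (log2 fold change 0.27, SE 0.10, adjusted p = 0.158).

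Among the 9 genes of deoxynucleotide synthesis and nucleoside phosphorylation, edgeR and limma voom placed 0 past the threshold in the Myc cohort, DESeq2 2 (*Nme2* and *Uck2*), and 3 had an unadjusted p under 0.05. *Rrm2*, the small subunit of ribonucleotide reductase that is made in S phase, measured 6.36, 5.90, 14.1, 7.14 and 11.6 CPM in Myc controls and 7.51, 7.49, 10.7, 11.2 and 11.0 in Myc KO kidneys. Its p53-inducible counterpart *Rrm2b* measured 31.5, 26.9, 27.5, 28.1 and 23.0 CPM in controls and 20.3, 28.7, 33.4, 27.6 and 33.01 in KO kidneys. Neither separated the groups (log2 fold change 0.087, SE 0.24, adjusted p = 0.862 and log2 fold change 0.067, SE 0.13, adjusted p = 0.795), nor did the large subunit *Rrm1*, with averages of 19.2 ± 0.351 and 18.5 ± 1.14 CPM (log2 fold change -0.053, SE 0.075, adjusted p = 0.708).

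*Nme1* and *Nme2* encode nucleoside diphosphate kinases that convert diphosphates to triphosphates. *Nme1* measured 35.6, 45.8, 36.7, 51.9 and 50.8 CPM in Myc controls and 40.5, 37.3, 28.8, 35.8 and 30.4 in Myc KO kidneys. *Nme2* measured 8.67, 12.2, 9.54, 13.5 and 11.5 CPM in controls and 9.57, 7.43, 7.18, 7.64 and 8.75 in KO kidneys. The groups overlapped (log2 fold change -0.35, SE 0.13, adjusted p = 0.154 and log2 fold change -0.44, SE 0.14, adjusted p = 0.113), and the *Nme2* count is uncertain because 48.9% of its exon bases also belong to the readthrough gene Gm20390, as do 12.5% of those of *Nme1*.

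The remaining kinases and *Tyms* showed overlapping groups. *Uck2*, uridine-cytidine kinase, averaged 45.0 ± 3.18 CPM in Myc controls and 36.7 ± 2.80 in Myc KO kidneys (log2 fold change -0.29, SE 0.077, adjusted p = 0.0751). *Tyms*, which makes dTMP, averaged 10.6 ± 0.866 and 9.68 ± 1.58 CPM (log2 fold change -0.13, SE 0.12, adjusted p = 0.549). The pyrimidine monophosphate kinase *Cmpk1* averaged 186 ± 11.9 and 171 ± 20.02 CPM (log2 fold change -0.12, SE 0.091, adjusted p = 0.452), and thymidine kinase *Tk1* averaged 4.08 ± 0.775 and 4.75 ± 0.438 (log2 fold change 0.22, SE 0.15, adjusted p = 0.402).

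The 3 serine genes all had estimates below 0 and 1 passed the threshold (33.3%). *Phgdh*, which catalyses the committed step, measured 16.7, 17.5, 14.7, 20.7 and 16.7 CPM in Myc controls and 6.88, 10.5, 11.5, 13.0 and 10.8 in Myc KO kidneys. The groups were separate, with 1 KO kidney far below the rest, and *Phgdh* fell by 38.6% (log2 fold change -0.70, SE 0.15, adjusted p = 0.0383). Its log2 ratio was -0.50 in kidneys with under 5% unmapped reads and -0.85 in the others. *Psat1*, the transaminase of the next step, averaged 335 ± 67.1 and 246 ± 32.6 CPM with overlapping groups (log2 fold change -0.44, SE 0.14, adjusted p = 0.107). *Psph*, the phosphatase of the last step, averaged 17.3 ± 3.28 and 14.01 ± 0.583 CPM (log2 fold change -0.29, SE 0.12, adjusted p = 0.200), with a log2 ratio of 0.017 in kidneys with under 5% unmapped reads and -0.49 in the others. *Psph* shares 10.4% of its exon bases with *Cct6a*, on the opposite strand, which carried 87640 reads over all 18 kidneys, so its count is uncertain.

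**Figure D4:**
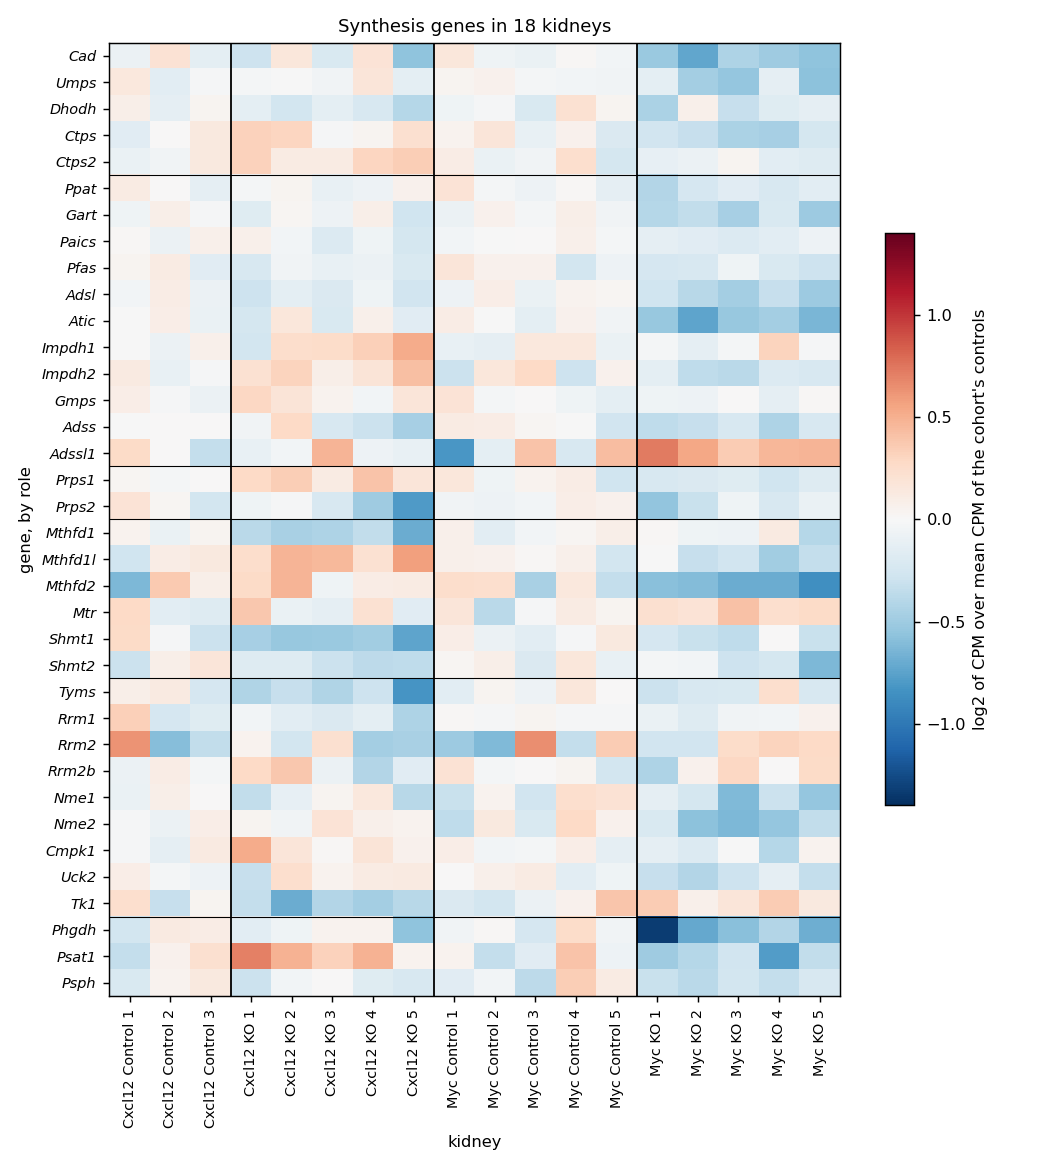
Log2 of each kidney's normalised CPM over the mean CPM of its cohort's controls (colour, blue lower, red higher) for the 36 genes (rows, by role) in 18 kidneys (columns, by group). Blue runs through most rows in the 5 Myc KO columns, with *Adssl1*, *Mtr* and *Tk1* as red rows, and the Cxcl12 KO columns hold rows of either colour.

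The second question was how the same genes differed between Cxcl12 KO and Cxcl12 control kidneys. The differences ran in both directions: cytosolic *Mthfd1* and *Shmt1* had the lowest adjusted p and lower KO values, whereas *Mthfd1l*, *Prps1* and *Psat1* had higher KO values. None of the 36 genes passed edgeR's threshold (0 of 15154 genes tested, 0.0%), nor did any by limma voom. An unadjusted p under 0.05 was found for 10 of the 36 and for 13.0% of all genes. DESeq2 placed *Mthfd1* and *Shmt1* past the threshold, both lower, beside 2.33% of all genes in either direction and 1.35% lower. Of the 36 estimates 21 were below 0 (49.8% of all genes), and their median was -0.076 beside 0.00083 for all genes. Every KO kidney was below every control in 5 genes (*Dhodh*, *Mthfd1*, *Shmt1*, *Tk1* and *Tyms*), seen in 4.72% of all genes, and above in 2 (*Mthfd1l* and *Prps1*), seen in 4.96%. The summed CPM of 6 proximal tubule markers was likewise separate, at 4526 to 5300.2 in controls and 3858 to 4385 in KO kidneys. That of 9 leukocyte markers was higher, at 70.1 to 71.3 and 76.2 to 167. Of the 7 leukocyte markers tested, 5 had estimates above 0 and 2 below, and in 2 every KO kidney was above every control. The part of these markers in the values of the 36 genes was not tested.

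*Mthfd1* measured 155, 140.2 and 153 CPM in Cxcl12 controls and 115, 109, 111, 118 and 92.7 in Cxcl12 KO kidneys. The 3 Cxcl12 controls were the highest of the 18 kidneys, and the Cxcl12 KO kidneys overlapped the range of the Myc controls (93.8 to 109.7). The difference missed edgeR's threshold (log2 fold change -0.46, SE 0.094, adjusted p = 0.0961) and passed that of DESeq2 (adjusted p = 0.00178). *Mthfd1l* measured 17.4, 22.7 and 23.1 CPM in controls and 25.1, 29.2, 28.8, 24.4 and 31.3 in KO kidneys, above the controls in each (log2 fold change 0.39, SE 0.12, adjusted p = 0.236). Per kilobase of exon, the log2 ratio of *Mthfd1* to *Mthfd1l* averaged 2.84 ± 0.28 in the controls and 1.98 ± 0.28 in the KO kidneys, without overlap. It averaged 2.05 ± 0.20 and 2.26 ± 0.26 in Myc controls and Myc KO kidneys, which overlapped.

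*Shmt1* measured 48.4, 39.9 and 32.7 CPM in Cxcl12 controls and 29.2, 27.9, 28.1, 28.8 and 24.2 in Cxcl12 KO kidneys. The groups were separate, with a wide spread among the 3 controls (log2 fold change -0.55, SE 0.12, adjusted p = 0.106 by edgeR, adjusted p = 0.00872 by DESeq2). *Shmt2* measured 115, 151 and 160.2 CPM in controls and 125, 125, 115, 110.0 and 111 in KO kidneys, and 1 control lay among the KO kidneys (log2 fold change -0.28, SE 0.11, adjusted p = 0.331). *Mthfd2* measured 31.6, 63.2 and 51.9 CPM in controls and 58.9, 68.1, 47.0, 52.6 and 52.96 in KO kidneys, and 1 low control widened the overlap (log2 fold change 0.19, SE 0.19, adjusted p = 0.704). *Mtr* averaged 21.2 ± 3.96 and 22.1 ± 3.77 CPM (log2 fold change 0.058, SE 0.16, adjusted p = 0.907).

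**Figure D5:**
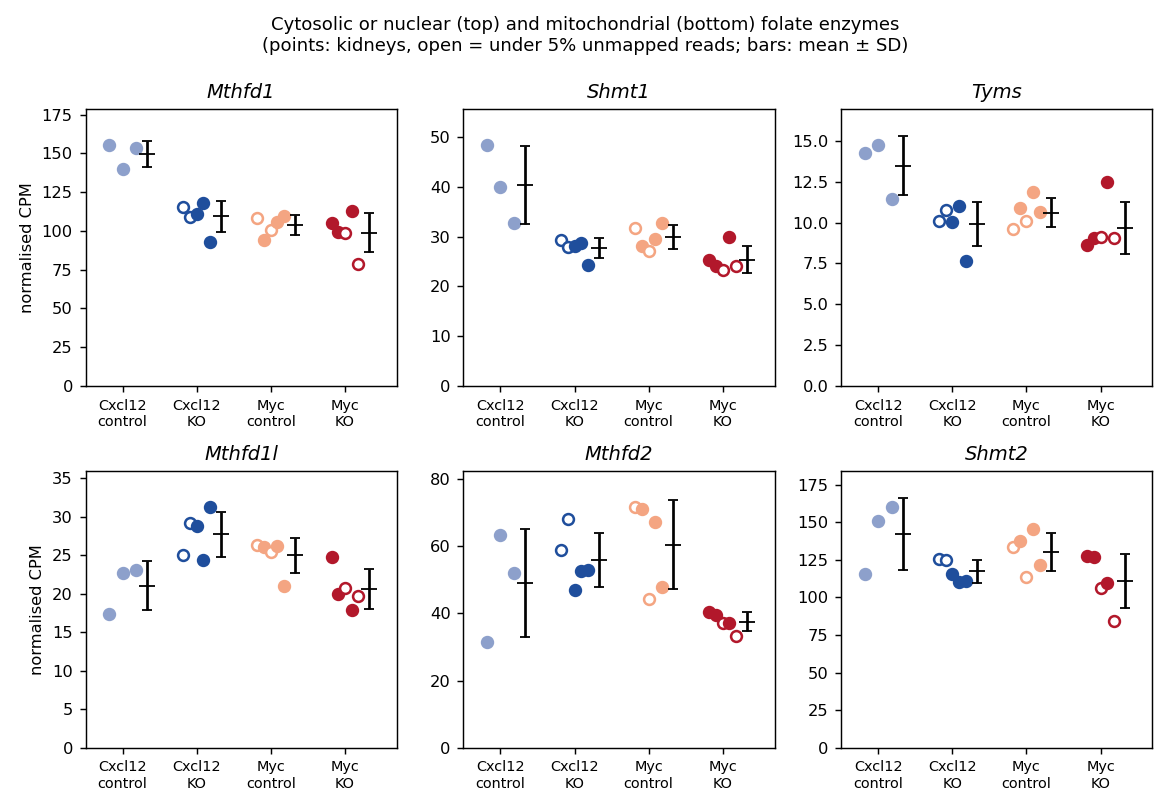
Normalised CPM (vertical axis) of 3 cytosolic or nuclear folate enzymes (top) and 3 mitochondrial ones (bottom) in each kidney of the 4 groups, with mean ± SD beside the points and open points for kidneys with under 5% unmapped reads. *Mthfd1* is highest in the 3 Cxcl12 controls, which also have the highest group means of *Shmt1* and *Tyms*, *Mthfd1l* is higher in the 5 Cxcl12 KO kidneys than in their controls, and *Mthfd2* is lowest in Myc KO kidneys apart from 1 Cxcl12 control.

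The deoxynucleotide genes *Tyms* and *Tk1* had lower values in Cxcl12 KO kidneys without passing the threshold. *Tyms* measured 14.3, 14.7 and 11.4 CPM in Cxcl12 controls and 10.1, 10.8, 10.04, 11.0 and 7.63 in Cxcl12 KO kidneys (log2 fold change -0.45, SE 0.14, adjusted p = 0.245). *Tk1* measured 6.195, 4.20 and 5.38 CPM in controls and 4.18, 3.26, 3.97, 3.77 and 4.03 in KO kidneys (log2 fold change -0.46, SE 0.18, adjusted p = 0.318), from 51 to 116 reads per kidney over the series. Groups of both genes were separate by narrow margins. *Rrm2* measured 11.9, 5.11 and 6.10 CPM in controls and 8.01, 6.48, 9.02, 5.55 and 5.64 in KO kidneys. *Rrm2b* measured 25.5, 29.2 and 26.5 CPM in controls and 32.96, 35.2, 25.5, 20.4 and 24.2 in KO kidneys. One control had the most *Rrm2* of its cohort and the groups of both genes overlapped (log2 fold change -0.16, SE 0.27, adjusted p = 0.838 and log2 fold change 0.033, SE 0.17, adjusted p = 0.953), as did those of *Rrm1* (log2 fold change -0.19, SE 0.14, adjusted p = 0.603).

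The nucleoside diphosphate kinases did not separate the groups. *Nme1* measured 47.7, 53.9 and 51.1 CPM in Cxcl12 controls and 40.0, 47.2, 52.4, 56.2 and 38.9 in Cxcl12 KO kidneys (log2 fold change -0.12, SE 0.12, adjusted p = 0.708). *Nme2* measured 9.46, 9.04 and 10.2 CPM in controls and 9.86, 9.24, 11.0, 10.04 and 9.92 in KO kidneys (log2 fold change 0.057, SE 0.11, adjusted p = 0.867). *Cmpk1* and *Uck2*, the kinases of nucleoside monophosphates and of uridine and cytidine, had estimates of 0.20 (SE 0.12) and 0.048 (SE 0.12), with adjusted p = 0.523 and 0.893.

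PRPP synthesis showed opposite signs for its 2 genes. *Prps1* measured 48.2, 46.6 and 47.6 CPM in Cxcl12 controls and 57.4, 60.5, 51.5, 62.8 and 53.5 in Cxcl12 KO kidneys, all above the controls (log2 fold change 0.26, SE 0.086, adjusted p = 0.245). *Prps2* measured 50.8, 45.2 and 37.1 CPM in controls and 42.5, 43.9, 38.1, 31.5 and 25.6 in KO kidneys, which overlapped (log2 fold change -0.29, SE 0.17, adjusted p = 0.499). Per kilobase of exon, the log2 ratio of *Prps1* to *Prps2* averaged 1.07 ± 0.22 in controls and 1.64 ± 0.32 in KO kidneys. These ratios did not overlap. Of the other paralog pairs, *Mthfd1* to *Mthfd1l* also had no overlap in this cohort. The ratios of *Ctps* to *Ctps2*, *Impdh1* to *Impdh2*, *Adss* to *Adssl1*, *Shmt1* to *Shmt2*, *Rrm2* to *Rrm2b* and *Nme1* to *Nme2* overlapped. Among single genes, every KO kidney was below every control in 4.72% and above in 4.96%. No such share was computed for ratios.

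Purine genes had log2 fold changes between -0.19 and 0.24 in the Cxcl12 cohort, with 7 of 11 estimates below 0 and 1 unadjusted p under 0.05 (*Adsl*, log2 fold change -0.19, SE 0.083, adjusted p = 0.367). *Gart*, *Atic*, *Ppat*, *Paics* and *Pfas* had estimates of -0.081, -0.071, -0.022, -0.091 and -0.14. *Impdh1* measured 19.2, 18.2 and 20.2 CPM in Cxcl12 controls and 16.1, 22.7, 22.9, 24.2 and 27.6 in Cxcl12 KO kidneys (log2 fold change 0.23, SE 0.15, adjusted p = 0.533). *Impdh2* measured 11.7, 9.96 and 10.6 CPM in controls and 12.4, 13.3, 11.4, 12.2 and 14.3 in KO kidneys (log2 fold change 0.24, SE 0.12, adjusted p = 0.413). Both of these genes and *Gmps* (log2 fold change 0.13, SE 0.091, adjusted p = 0.561) had higher KO means with overlapping groups. *Adss* measured 253, 257 and 255 CPM in controls and 246, 309, 219, 208 and 184 in KO kidneys (log2 fold change -0.13, SE 0.15, adjusted p = 0.731). *Adssl1* measured 3.37, 2.80 and 2.21 CPM in controls and 2.60, 2.73, 3.89, 2.66 and 2.60 in KO kidneys (log2 fold change 0.035, SE 0.22, adjusted p = 0.962). The *Adss* controls lay close together, while the KO kidneys lay on either side of them.

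In pyrimidine synthesis *Cad* measured 54.4, 66.3 and 52.7 CPM in Cxcl12 controls and 47.3, 64.3, 49.9, 65.9 and 39.1 in Cxcl12 KO kidneys, and the groups overlapped (log2 fold change -0.12, SE 0.16, adjusted p = 0.786). *Umps* averaged 39.6 ± 4.09 and 39.4 ± 3.12 CPM (log2 fold change -0.0100, SE 0.097, adjusted p = 0.975), and *Dhodh* averaged 13.8 ± 1.04 and 11.8 ± 0.848 with narrowly separate groups (log2 fold change -0.23, SE 0.11, adjusted p = 0.412). *Ctps* measured 106, 119 and 131 CPM in controls and 148, 146, 118, 122 and 138 in KO kidneys (log2 fold change 0.18, SE 0.11, adjusted p = 0.513). *Ctps2* measured 36.01, 37.1 and 42.3 CPM in controls and 48.1, 41.6, 41.8, 47.3 and 48.8 in KO kidneys (log2 fold change 0.24, SE 0.094, adjusted p = 0.327). Either CTP synthase gene had a higher KO mean and overlapping groups.

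The 2 Cxcl12 KO kidneys with under 5% unmapped reads have no control of that kind. Without them, the edgeR log2 fold change went from -0.13 to -0.34 for *Adss*, from -0.29 to -0.50 for *Prps2* and from 0.23 to 0.36 for *Impdh1*. It came nearer to 0 for *Ctps* (0.18 to 0.073), *Mthfd2* (0.19 to 0.043), *Gmps* (0.13 to 0.052), *Cmpk1* (0.20 to 0.075) and *Nme1* (-0.12 to -0.062). None of these genes passed the threshold in either fit, and the folate genes *Mthfd1* and *Shmt1* stood at -0.49 and -0.59 without those kidneys.

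Among the serine genes of the Cxcl12 cohort, *Psat1* measured 183, 239 and 268 CPM in controls and 375, 322, 287, 322 and 237 in KO kidneys. All 5 KO kidneys were above the control mean, 1 of them below the 2 highest controls (log2 fold change 0.42, SE 0.16, adjusted p = 0.315). *Phgdh* measured 13.99, 18.2 and 17.99 CPM in controls and 15.1, 16.1, 17.3, 17.4 and 11.3 in KO kidneys and overlapped (log2 fold change -0.12, SE 0.15, adjusted p = 0.768). *Psph* averaged 17.5 ± 2.18 and 15.9 ± 1.43 CPM (log2 fold change -0.14, SE 0.12, adjusted p = 0.626).

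Whether the KO effects differed between the cohorts was tested as an interaction over all 18 kidneys. No synthesis gene passed edgeR's threshold, which 11 of 15903 genes did (0.0692%), and none did by limma voom. An unadjusted p under 0.05 was found for 17 of the 36 genes and 11.4% of all genes, and 6 of the 36 passed by DESeq2 (*Atic*, *Ctps*, *Mthfd1l*, *Mthfd2*, *Prps1* and *Psat1*), all with lower fold changes in the Myc cohort, beside 2.04% of all genes in either direction and 1.47% lower. The smallest adjusted p belonged to *Mthfd1l*, whose log2 fold change was lower in the Myc cohort by 0.68 (difference of log2 fold changes -0.68, SE 0.16, adjusted p = 0.0791). *Prps1* followed (difference of log2 fold changes -0.48, SE 0.12, adjusted p = 0.0881), then *Atic* (difference of log2 fold changes -0.51, SE 0.13, adjusted p = 0.0892), *Psat1* (difference of log2 fold changes -0.87, SE 0.22, adjusted p = 0.0961) and *Ctps* (difference of log2 fold changes -0.53, SE 0.14, adjusted p = 0.0972). *Mthfd2*, which passed in the Myc cohort, had the most negative estimate of the 36 (difference of log2 fold changes -0.88, SE 0.25, adjusted p = 0.137). *Cad*, *Gart*, *Adsl* and *Phgdh*, which passed there too, had interaction estimates of -0.43, -0.30, -0.20 and -0.59. A different effect in the cohorts was therefore not shown by edgeR for any synthesis gene.

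Levels can be compared between genes only per length, here as mean CPM per kilobase of exon over the 18 kidneys. The exon length joins the exons of all annotated transcripts of a gene and can exceed the length of any single transcript. It was 11012 bases for *Rrm1*, so the order below depends in part on the annotation. *Psat1* was the most abundant at 67.1, followed by *Paics*, *Cmpk1* and *Adss* at 52.98, 52.96 and 52.49. *Shmt2*, *Ctps*, *Prps1* and *Mthfd1* lay between 39.6 and 25.1 CPM per kb. The genes that fell in Myc KO kidneys were of middle abundance, from *Mthfd2* at 14.6, *Gart* at 10.2, *Adsl* at 9.14 and *Atic* at 7.17 to *Phgdh* at 5.95 and *Cad* at 5.52. Least abundant were *Dhodh*, *Tyms*, *Rrm1*, *Adssl1* and *Tk1*, between 1.76 and 0.846. On this scale *Psat1* exceeded *Phgdh*, the enzyme before it, in every group: 78.7 and 6.94 CPM per kb in Myc controls, and 57.8 and 4.23 in Myc KO kidneys.

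Neighbouring pathways were taken from 4 lists of genes that are not among the 36, to be read beside the 1.29% of all genes that were lower in the Myc cohort by edgeR, the 7.57% called by DESeq2 and the 21.9% with an unadjusted p under 0.05. Of the nucleotide salvage and breakdown genes 1 of 37 tested fell in the Myc cohort (2.7%), *Dtymk*, the thymidylate kinase that follows *Tyms* and *Tk1* (log2 fold change -0.42, SE 0.078, adjusted p = 0.0251). Of the folate partners 2 of 28 fell (7.14%): *Mtrr*, which reactivates methionine synthase (log2 fold change -0.46, SE 0.10, adjusted p = 0.0417), and *Mat2a*, which makes S-adenosylmethionine (log2 fold change -0.40, SE 0.089, adjusted p = 0.0429). Of the genes handling serine and glycine 1 of 10 fell, the glycine transporter *Slc6a9* (log2 fold change -0.73, SE 0.17, adjusted p = 0.0493), a call that limma voom did not make and for which 1 control was high at 64.4 CPM. DESeq2 placed 4 of 37 salvage genes, 4 of 28 folate partners and 3 of 10 serine and glycine genes past the threshold. All were lower except *Gatm* and *Slc38a2* of the last list, which were higher. An unadjusted p under 0.05 was found for 12, 9 and 3. Among ATF4 and 7 of its usual targets 0 of 8 passed by edgeR or limma voom, 2 by DESeq2 (*Asns* and *Atf5*), and 2 had an unadjusted p under 0.05. Asparagine synthetase *Asns* came closest (log2 fold change -0.63, SE 0.15, adjusted p = 0.0591), and *Atf4* itself had an estimate of 0.11 (SE 0.13, adjusted p = 0.653). In kidneys with 5% or more unmapped reads none of the 4 called genes passed (adjusted p = 0.0576 for *Dtymk*, 0.104 for *Mtrr*, 0.0649 for *Mat2a* and 0.0831 for *Slc6a9*, by edgeR), and without a filter on low counts *Mtrr* and *Mat2a* did not (0.0503 and 0.0515).

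In the Cxcl12 cohort edgeR and limma voom placed none of these listed genes past the threshold. Unadjusted p under 0.05 occurred in 8 of 37 salvage genes, 9 of 28 folate partners, 4 of 10 serine and glycine genes and 2 of 8 in the ATF4 list, beside 13.0% of all genes, and DESeq2 placed 3, 3, 3 and 0 past the threshold, beside 2.33% of all genes. The lowest adjusted p in each list belonged to *Ampd3*, an AMP deaminase (log2 fold change 0.57, SE 0.087, adjusted p = 0.0617), *Gldc*, the glycine decarboxylase of the glycine cleavage system (log2 fold change -0.81, SE 0.18, adjusted p = 0.108), the amino acid transporter *Slc38a2* (log2 fold change 0.63, SE 0.13, adjusted p = 0.0947) and *Atf4* (log2 fold change 0.41, SE 0.17, adjusted p = 0.359). *Gldc* was listed at 767, 432 and 481 CPM in the 3 controls and 329.8, 278, 333, 388 and 271 in the KO kidneys, so that 1 control stood high above the rest.

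Markers of other cells and states had the following values, and their part in the results above was not tested. In the Myc cohort the summed CPM of 6 proximal tubule genes ranged from 3731 to 4392 in controls and from 3346 to 5318 in KO kidneys, and that of 6 genes of the loop, distal tubule and collecting duct from 3719 to 6601 and from 4358 to 5923. Sums over 4 endothelial genes were 395 to 671 and 551 to 770.4, and over 4 podocyte genes 322 to 554 and 492.7 to 613. Over 9 leukocyte genes they were 99.9 to 250.4 and 182 to 276, with 5 of 7 tested estimates above 0 and 2 below. All 4 endothelial and all 4 podocyte estimates were above 0, none past edgeR's or limma voom's threshold, while 2 and 1 passed by DESeq2 (7.57% of all genes), and 2 in each list had an unadjusted p under 0.05 (21.9% of all genes). Over 12 proliferation genes the sums were 127 to 177 and 135 to 143, with 10 of 11 tested estimates below 0, none past edgeR's or limma voom's threshold, 2 past DESeq2's (*Mcm2* and *Mcm7*) and 2 with an unadjusted p under 0.05. Of 6 p53 targets 1 passed by edgeR (*Phlda3*, lower, adjusted p = 0.0279), beside 1.29% of all genes that were lower. An unadjusted p under 0.05 was found for 3 of these 6, all lower. Their sums were 734 to 856 and 725 to 828. No gene of the 2 tubule lists or the leukocyte list passed by edgeR, limma voom or DESeq2. An unadjusted p under 0.05 was found for 0 of 6 proximal tubule genes, 0 of 6 of the later segments and 2 of 7 leukocyte genes tested.

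In the Cxcl12 cohort all 6 proximal tubule estimates were below 0. The sums were 4015 and 5007 at their lowest and highest in controls and 2976 to 5412 in KO kidneys for the loop, distal tubule and collecting duct. They were 403 to 428 and 409 to 558 for endothelium, 417 to 445 and 383 to 599.6 for podocytes, 139.9 to 220.3 and 138 to 163 for proliferation, and 649 to 758 and 726 to 924 for p53 targets. No marker of this cohort passed the threshold by edgeR, limma voom or DESeq2. An unadjusted p under 0.05 was found for 2 of 6 proximal tubule genes, 1 of 6 of the later tubule segments, 0 of 4 podocyte genes, 1 of 4 endothelial genes, 4 of 7 leukocyte genes tested, 1 of 11 proliferation genes tested and 2 of 6 p53 targets, beside 13.0% of all genes. No marker was at 0 in all kidneys, and the lymphocyte genes *Cd3e* and *Cd79a* stayed under 1 CPM in every kidney of every group.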

How the data were processed

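RNA was extracted from 18 snap-frozen mouse kidneys and sequenced. According to the submitters' processing notes the authors used Trimmomatic 0.32 and STAR 2.4.0 with GRCm38, and they deposited read counts per Ensembl gene for each kidney. The paper's methods also describe a voom transformation and a calibration for batch effects by ComBat. The labels name no batch, and the counts used here were not calibrated in this way. The deposited counts used here ignore strand, and the columns counted on each strand held 51.8% to 52.4% and 52.3% to 52.8% of the total that ignores strand. Rows that name no gene (unmapped, multimapped, no feature and ambiguous) were left out of library sizes and tests, and reads falling in them made up 29.4% to 32.6%. Symbols, positions and exon lengths came from the GENCODE annotation of GRCm38, and promoter windows from RefSeq (GRCm38.p6).

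Genes were filtered with filterByExpr, scaled by TMM and tested with edgeR 4.0.16 (quasi-likelihood F-test, R 4.3.3). Each cohort was compared with its own controls, and the interaction used all 18 kidneys. P-values were adjusted by Benjamini-Hochberg over all genes tested, with a threshold of 0.05, and SE is the log2 fold change divided by the root of F. Normalised CPM used TMM factors over all 18 kidneys. DESeq2 1.42.0, limma voom 3.58.1 and further settings served as alternatives. The procedure was tested on simulated data.

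Values in each kidney are given for genes of the 36 past the threshold, in the cohort where they passed, for 8 pairs of paralogs, and for *Myc* and *Cxcl12*. Of the related lists, fold changes are given for genes past the threshold or else the lowest adjusted p. *Gm15964*, *Gm20390*, *Cct6a*, *Atf5*, *Gatm*, *Mcm2*, *Mcm7* and *Phlda3* were named after their values were seen, as were the *Tyms*, *Tk1*, *Psat1* and *Gldc* values by kidney. The members and lists were chosen with earlier results of these data known. Of the 40 listed salvage genes 39 were matched by symbol. Exon bases shared with another gene were found for 15 of the 36 genes. Labels number the kidneys within each group. The p-values measure the spread between these kidneys, and all 33 pairs of kidneys within a group differed by more than sampling noise (chi-square per degree of freedom of 5.77 to 69.1).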

Additional observations from a re-analysis of the deposited data

Results flagged for a closer look

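Of 141 sets of 5 values screened (a gene in a group of 5 kidneys), 7 held a kidney that stood apart from the other 4, and chance flags about 1 in 20 sets. *Impdh1* was high in 1 Myc KO kidney at 27.2 CPM, with the nearest other at 21.5. *Tyms* was high in the same Myc KO kidney at 12.5 CPM beside 9.14. *Adssl1* was high in 1 Cxcl12 KO kidney at 3.89 CPM beside 2.73. *Shmt1* at 24.2 CPM and *Tyms* at 7.63 CPM were both low in Cxcl12 KO kidney 5. *Mthfd1l* was low in 1 Myc control at 21.0 CPM beside 25.4. *Slc6a9*, which passed the threshold in the Myc cohort, was high in 1 Myc control at 64.4 CPM beside 44.5.

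The effect of the genotype on *Myc* itself differed between the cohorts, with a log2 fold change lower by 1.83 in the Myc cohort (interaction -1.83, edgeR adjusted p = 0.000107). The floxed Cmyc allele is carried by that cohort alone.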

How the results depend on the processing

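In the Myc cohort the direction of the 6 genes past the threshold was the same under each alternative, and RLE size factors, limma voom and no filter on low counts left 6 of the 36 genes past it. DESeq2 gave 12, a covariate marking the kidneys with under 5% unmapped reads 11, and kidneys with 5% or more unmapped reads 0. Over all genes the 246 became 1131, 954 and 8 under these settings, and 683 with all 18 kidneys in one fit. Leaving out 1 kidney gave 2 to 7 of the 36 (7 without Myc control 3) and 21 to 877 of all genes. *Cad* and *Atic* stayed past the threshold in all 10 of these fits. For the other genes, the brackets below name the kidneys without which adjusted p rose above 0.05, so that the call was lost. Adjusted p reached 0.0986 for *Gart* (control 2, 4 or 5, or KO 2, 3 or 5) and 0.089 for *Adsl* (the same and KO 4). It reached 0.0992 for *Mthfd2* (control 2 or 4, or KO 2, 3, 4 or 5) and 0.105 for *Phgdh* (any control but 3, or any KO but 1). It reached 0.089 for *Dtymk* (control 2 or 5, or KO 2, 3 or 4), 0.126 for *Mtrr* (any control but 3, or any KO but 1), and 0.134 for *Mat2a* and 0.107 for *Slc6a9* (any control but 3, or any KO). Without control 3, *Ctps* passed (adjusted p = 0.0411).

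Kidneys of KO and control groups carry the same numbers. Correlations of the deviations of same-numbered kidneys ranged from -0.21 to 0.40 in the Myc cohort (mean 0.053) and from -0.032 to 0.13 in the Cxcl12 cohort (mean 0.068). Those of differently numbered kidneys ranged from -0.52 to 0.48 (mean -0.011) and from -0.13 to 0.19 (mean -0.017). With 5 and 3 same-numbered pairs, these values cannot decide whether the numbers mark pairs. A replicate block in the model placed 1 of the 36 genes (*Atic*) and 18 of all genes past the threshold in the Myc cohort, and 1 gene in the interaction, and *Dtymk*, *Mtrr*, *Mat2a* and *Slc6a9* no longer passed. With this block the median of the 36 in the Cxcl12 cohort was -0.024, and estimates there became 0.0013 for *Adss*, 0.087 for *Rrm2*, -0.011 for *Uck2*, 0.011 for *Dtymk* and 0.053 for *Mat2a*.

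In the Cxcl12 cohort 2 of the 36 passed by DESeq2 and 2 without a filter on low counts (*Mthfd1* and *Shmt1* each time). Over all genes the 0 became 353 and 214, and 25 with all 18 kidneys in one fit. The count was 80 in kidneys with 5% or more unmapped reads, 123 with the covariate marking under 5%, and 0 to 15 without 1 kidney. No Cxcl12 control had under 5% unmapped reads, so in this cohort the covariate takes up the 2 KO kidneys that did. Its fit is thus not a check separate from leaving those kidneys out. The median of the 36 was -0.10 in kidneys with 5% or more unmapped reads and -0.11 to -0.027 without 1 kidney. In the interaction DESeq2 placed 6 of the 36 and 324 of all genes past the threshold. The 11 genes became 3 by limma voom, 44 in kidneys with 5% or more unmapped reads, 133 with the covariate and 1 to 75 without 1 kidney. The cause of these shifts was not tested.

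Estimates near 0 changed sign. In kidneys with 5% or more unmapped reads these were *Mthfd1* (0.046) and *Rrm2b* (-0.013) in the Myc cohort, and *Mtr* (-0.024), *Rrm2b* (-0.23) and *Slc6a9* (-0.040) in the Cxcl12 cohort. With the covariate they were *Mtr* (-0.017), *Rrm2b* (-0.22) and *Slc6a9* (-0.034) in the Cxcl12 cohort. Without 1 kidney, ranges in the Myc cohort were -0.050 to 0.073 for *Impdh1*, -0.077 to 0.0055 for *Gmps*, -0.12 to 0.0054 for *Mthfd1*, -0.028 to 0.32 for *Rrm2* and -0.0044 to 0.16 for *Atf4*. In the Cxcl12 cohort they were -0.078 to 0.072 for *Umps*, -0.085 to 0.039 for *Ppat*, -0.11 to 0.19 for *Adssl1*, -0.045 to 0.42 for *Mthfd2*, -0.037 to 0.22 for *Mtr*, -0.30 to 0.015 for *Rrm1*, -0.39 to 0.30 for *Rrm2*, -0.077 to 0.13 for *Rrm2b*, -0.0077 to 0.13 for *Uck2*, -0.077 to 0.032 for *Mat2a*, -0.26 to 0.33 for *Slc6a9* and -0.0023 to 0.36 for *Asns*. Depth limits the low genes most: *Adssl1*, *Tk1*, *Phgdh*, *Rrm2* and *Dhodh* had under 100 reads in at least 1 kidney.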
